A study of Mus musculus with 22 samples.

Results

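In male mice trisomic for part of chromosome 17, the level of 9 genes differed from euploid siblings in the same direction at 2 stages of late germ cells, mid-late-pachytene spermatocytes and spermatids. These were Ttc22, Runx1t1, Npepl1 and 1700097N02Rik, which were higher, and Bhmt, Bcr, Pard6g, Ramp3 and 4921536K21Rik, which were lower. They were selected on the measured trisomic minus euploid differences of these 2 stages, as every gene past an adjusted p of 0.05 in both comparisons with 1 direction, 9 of 7647 genes tested in both, on an array with 15780 named probe sets. No gene passed both in opposite directions. Because the differences in late germ cells chose the genes, they are given below as a description with no test. Measurements of the same genes in liver and in pre-mid-pachytene spermatocytes, and the differences between cell types averaged over genotypes, were not used in that choice and are tested.

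The series measured RNA with 22 Affymetrix arrays from 2-month-old male mice: Ts43H males, trisomic for the centromeric part of chromosome 17, and their euploid siblings labelled t121/D17. Trisomic and euploid males each gave 2 arrays of mid-late-pachytene spermatocytes and 3 arrays of each other cell type, namely liver, spermatids and pre-mid-pachytene spermatocytes, the germ cells having been sorted from testicular cell suspensions by fluorescence. The labels give no strain background, no breakpoint of the extra segment, no meaning for t121/D17 and no statement that the arrays of a group came from different animals, so p values cover the spread between these arrays, which may be technical. Levels are log2 array intensities as the authors deposited them, and a level below 3 is called background range here, since the lower quartile of every array lay between 2.35 and 2.46.

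Pachytene is the long stage of meiotic prophase in which homologous chromosomes are paired along their length, and chromatin left unpaired is transcriptionally silenced there. Germ cells turn on many genes between early and late pachytene, among them genes used only after the meiotic divisions. Spermatids are the haploid cells that follow and reshape themselves into sperm. The 9 genes belong to no single pathway. Ttc22 encodes a protein of tetratricopeptide repeats, a fold through which proteins bind each other, Runx1t1 a corepressor of transcription, Npepl1 an aminopeptidase-like protein, and 1700097N02Rik is annotated as a long noncoding RNA. Bhmt encodes the enzyme that remethylates homocysteine with betaine, Bcr a signalling protein, Pard6g a cell polarity adaptor and Ramp3 an accessory protein of a peptide receptor, while 4921536K21Rik is uncharacterised.

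The array labels were checked with the first 200 chromosome 17 genes of the array, of which 90 to 93 had a mean level of at least 6 in each cell type. The score of an array was their median deviation from the cell type's mean, less the same median for genes of the other autosomes. It is given relative to the mean euploid score. Trisomic arrays had 0.68 to 0.78 in liver, 0.24 to 0.31 in mid-late-pachytene spermatocytes and 0.27 to 0.41 in spermatids, above every euploid array in each. In pre-mid-pachytene spermatocytes the trisomic arrays had 0.077 to 0.21 and overlapped with the euploid ones, which reached 0.080. Hepatocyte markers had a median level of 16.1 to 16.2 in liver and lay in the background range in every germ cell group, and no tested marker passed between genotypes in mid-late-pachytene spermatocytes (44 markers of 9 lists) or in spermatids (43 markers of 9 lists). The hepatocyte, Leydig cell and red blood cell lists had no marker above the minimum mean in these cells and were not tested there. In pre-mid-pachytene spermatocytes 5 of 10 round spermatid markers fell in trisomic arrays, with a median level of 9.08 ± 0.35 in trisomic and 9.80 ± 0.47 in euploid arrays (SD, n = 3 each). Elongating spermatid markers stood at 14.29 in trisomic and 14.21 in euploid pre-mid-pachytene arrays (means of the array medians), nearly as high as in spermatids, where they had 14.55 and 14.80. In such sorted samples fewer cells of a type and less RNA per cell cannot be told apart.

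Of the members, Ttc22 on chromosome 4 had the largest difference in spermatids and was the only member whose euploid spermatids averaged in the background range. In spermatids its level was 7.45, 8.01 and 7.17 in trisomic arrays and 2.76, 3.24 and 2.84 in euploid arrays. In mid-late-pachytene spermatocytes it was 8.02 and 7.70 in trisomic arrays and 4.96 and 3.86 in euploid arrays. Trisomic arrays lay above all euploid arrays in both cell types, and the euploid spermatids sat near the floor of the array, so the size of that difference depends on where the floor lies. The fitted difference was 4.59 (SE 0.24) in spermatids and 3.46 (SE 0.30) in mid-late-pachytene spermatocytes on the log2 scale, or 24.2-fold and 11.0-fold. In trisomic cells the level of spermatids overlapped with that of mid-late-pachytene spermatocytes, whereas in euploid cells it was lower by 1.46 with no overlap. Ttc22 was in the background range on all 12 arrays of liver and pre-mid-pachytene spermatocytes, the highest value there being 2.70.

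The sequence before the start of Ttc22 is shown because the gene averaged in the background range in euploid spermatids. It is from RefSeq (GRCm38.p6, chr4:106622199-106622448, plus strand, the 250 bases upstream, 5′ to 3′), with CG dinucleotides, the sites of DNA methylation, in capitals.
Ttc22: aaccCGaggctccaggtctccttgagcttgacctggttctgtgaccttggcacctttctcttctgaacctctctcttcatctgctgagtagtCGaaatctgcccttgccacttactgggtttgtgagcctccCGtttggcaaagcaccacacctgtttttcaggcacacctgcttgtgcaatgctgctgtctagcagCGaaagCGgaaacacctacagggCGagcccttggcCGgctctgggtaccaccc
It holds 7 CG, close to the median of 6 over the same window of 32851 mouse promoters. Neither a CRE (TGACGTCA, present in 1.55% of promoters) nor an RFX half-site (GTTGCC, 10.4%) was found in it on either strand, and the MYB core AACNG, which 74.2% of promoters hold, was found 2 times. Both genes next to Ttc22 on the array, Tmem61 and Pars2, were in the background range in spermatids and mid-late-pachytene spermatocytes of both genotypes.

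Runx1t1, also on chromosome 4, is the gene known as ETO, whose product brings histone deacetylases to DNA-bound factors and which is fused to RUNX1 in human leukaemia. Its level in mid-late-pachytene spermatocytes was 8.68 and 8.92 in trisomic arrays and 7.40 and 7.79 in euploid arrays. Spermatids had 8.61, 8.90 and 9.15 in trisomic arrays and 7.97, 8.19 and 7.31 in euploid arrays. The genotypes did not overlap in either, with differences of 1.21 (SE 0.25) and 1.06 (SE 0.20). In pre-mid-pachytene spermatocytes, where the gene was just above background, trisomic arrays had 3.54, 3.86 and 3.50 and euploid arrays 3.33, 3.24 and 3.35. These did not overlap either, but the mean was under 4, the minimum set for a test, and the difference of 0.32 (SE 0.19) has an interval of -0.084 to 0.73. Liver had 2.43 to 2.60 in trisomic and 2.43 to 2.69 in euploid arrays, all background range.

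Npepl1 on chromosome 2, a relative of leucine aminopeptidases, was the one member with a high level in every cell type. Mid-late-pachytene spermatocytes had 9.60 and 9.13 in trisomic arrays and 8.42 and 8.13 in euploid arrays, and spermatids 9.47, 9.63 and 9.46 in trisomic arrays and 8.89, 8.72 and 8.90 in euploid arrays. Both sets of arrays were separate, with differences of 1.09 (SE 0.19) and 0.68 (SE 0.16). In pre-mid-pachytene spermatocytes the arrays were separate as well, at 10.73, 10.88 and 10.80 in trisomic and 10.42, 10.53 and 10.45 in euploid males, yet the difference of 0.34 (SE 0.16) did not pass in limma (adjusted p = 0.186). The median gene in that comparison stood at 0.11. In liver Npepl1 had 10.71, 11.00 and 10.61 in trisomic arrays and 10.65, 11.09 and 10.87 in euploid arrays, which overlapped, with a difference of -0.10 (95% interval -0.41 to 0.22, limma adjusted p = 0.800).

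1700097N02Rik was the only member on chromosome 17, the chromosome of the extra segment. It is the 256th of 743 chromosome 17 genes of the array, counted from the centromere, and lies between Glo1, the glyoxalase gene, and Dnah8, a dynein heavy chain gene of the sperm tail. Mid-late-pachytene spermatocytes had 13.47 and 13.33 in trisomic arrays and 12.41 and 11.86 in euploid arrays. Spermatids had 11.87, 12.18 and 12.23 in trisomic arrays and 10.84, 11.11 and 11.10 in euploid arrays. The genotypes were separate in both, with differences of 1.26 (SE 0.29) and 1.08 (SE 0.24). In pre-mid-pachytene spermatocytes trisomic arrays had 11.61, 11.82 and 11.23 and euploid arrays 10.53, 10.30 and 11.32. There the trisomic arrays overlapped with euploid replicate 3, and the gene rose by 0.84 (SE 0.24, 95% interval 0.35 to 1.34, limma adjusted p = 0.0316). That call ended under quantile normalization (adjusted p = 0.0703), with no filter on the mean (0.0524), with the replicate number as a block (0.0718), on the 6 pre-mid-pachytene arrays alone (0.169) and without trisomic replicate 1 or 2 or euploid replicate 1 or 2 (0.0996 to 0.142). Liver had levels near background, 3.06 to 3.36 in trisomic and 2.70 to 3.21 in euploid arrays.

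The upstream sequence of 1700097N02Rik is shown because it starts back to back with Dnah8, the starts lying 31 bases apart on opposite strands in RefSeq. It is chr17:30626906-30627155 of GRCm38.p6, read on the minus strand, with matches of the MYB core AACNG on either strand in capitals (CNGTT on the other strand).
1700097N02Rik: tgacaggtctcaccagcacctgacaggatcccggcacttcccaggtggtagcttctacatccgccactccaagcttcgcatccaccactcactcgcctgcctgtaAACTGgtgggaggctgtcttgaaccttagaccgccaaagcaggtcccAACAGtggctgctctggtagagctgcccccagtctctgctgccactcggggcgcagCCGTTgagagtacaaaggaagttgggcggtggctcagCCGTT
It holds 4 such matches, and 74.2% of promoters hold at least 1. A start in the opposite direction within 300 bases is found at 8.39% of promoters. Dnah8 did not pass in any cell type where it was tested. Its level in spermatids was 13.94, 14.33 and 14.30 in trisomic arrays and 13.67, 14.04 and 13.65 in euploid arrays, a difference of 0.40 (SE 0.17). In mid-late-pachytene spermatocytes the difference of Dnah8 was 0.17 (SE 0.21), and in pre-mid-pachytene spermatocytes 0.46 (SE 0.17, limma adjusted p = 0.0957). The mid-late-pachytene arrays of Dnah8 were separate, at 15.06 and 15.01 in trisomic and 14.87 and 14.86 in euploid males. Of all tested genes 33% did not overlap in that cell type. Whether Dnah8 and 1700097N02Rik differ in their response was not tested.

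Of the 10 array genes on each side of 1700097N02Rik, those tested did not pass in any of the cell types. Just outside the threshold were Umodl1 in spermatids and Zfand3 and Rnf8 in liver (limma adjusted p = 0.0510, 0.0520 and 0.0524), all higher in trisomic arrays. On the centromeric side the median difference of those tested was 0.65 in liver (7 genes), 0.27 in pre-mid-pachytene spermatocytes (8 genes), 0.41 in mid-late-pachytene spermatocytes (8 genes) and 0.29 in spermatids (9 genes). On the distal side, where 3 to 5 genes were tested, it was 0.23, 0.23, -0.12 and 0.15 in the same order. In the late cells 1700097N02Rik itself had the differences of 1.26 and 1.08 that chose it, so its rank among these neighbours is not a result. Umodl1 on the distal side had 0.93 (SE 0.22) in spermatids.

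**Figure D1:**
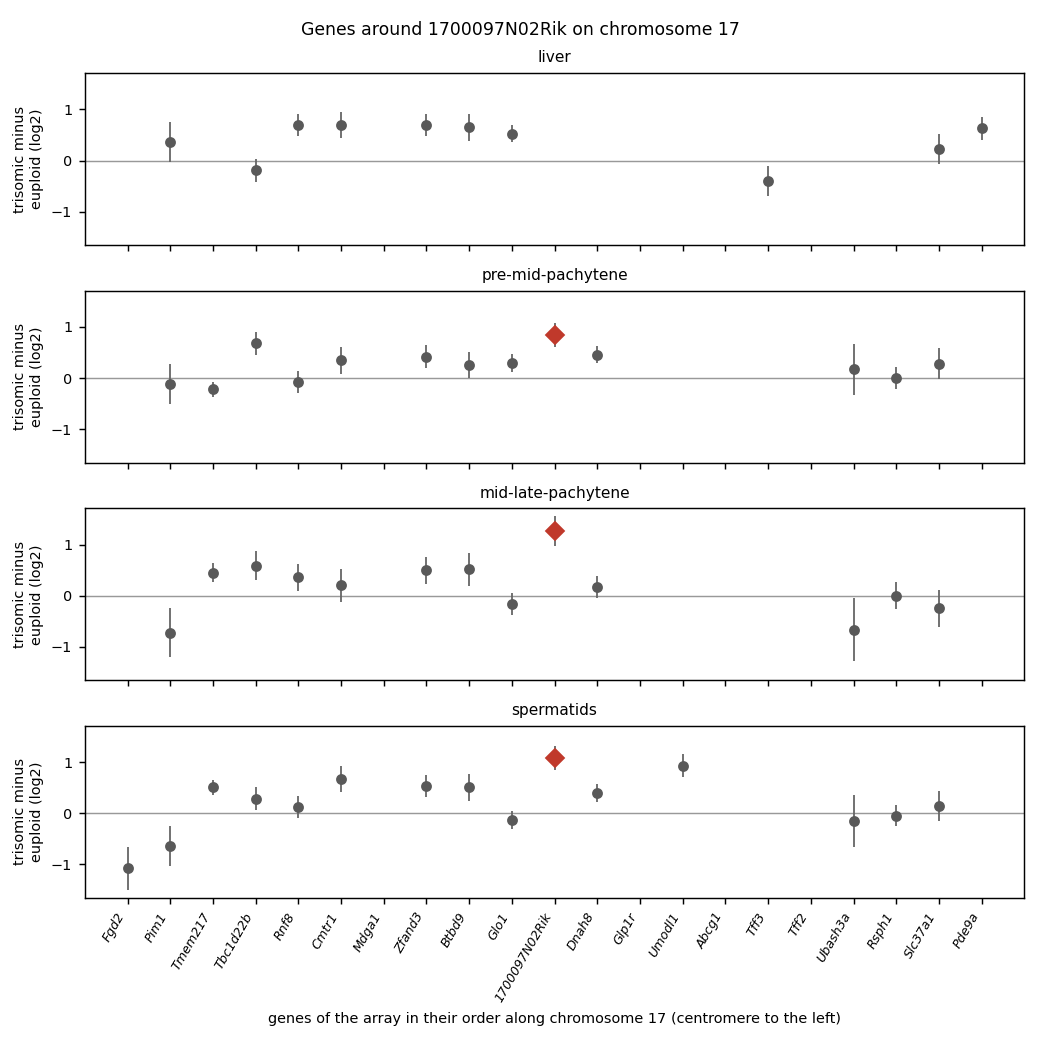
Trisomic minus euploid difference (log2, y axis) of 1700097N02Rik (red diamond) and of the 10 array genes on each side of it (grey points) in their order along chromosome 17, by cell type; bars are 1 SE, and genes with a mean level under 4 are left out. The centromeric neighbours of liver sit mostly near 0.65, and the red diamond in both late germ cell panels is a value that chose the gene.

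Bhmt on chromosome 13 had the largest fall among the members and the only level that was very high in liver, where betaine-dependent remethylation of homocysteine is known to be strong. In mid-late-pachytene spermatocytes it had 2.65 and 2.79 in trisomic arrays and 6.55 and 7.37 in euploid arrays. The trisomic arrays were in the background range, so the difference of -4.24 (SE 0.74) depends on the floor of the array. In spermatids the levels were 4.21, 2.69 and 5.94 in trisomic arrays and 7.51, 5.91 and 7.97 in euploid arrays. Here the genotypes overlapped by a narrow margin, trisomic replicate 3 lying just above euploid replicate 2, and the difference was -2.85 (SE 0.61).

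Bhmt fell in pre-mid-pachytene spermatocytes too, a comparison that did not choose it. Its level was 3.69, 3.76 and 4.05 in trisomic arrays and 8.08, 7.50 and 6.32 in euploid arrays, with a wide gap between the genotypes. The fall was 3.46 on the log2 scale (SE 0.61, 95% interval of the difference -4.74 to -2.19, limma adjusted p = 0.00317). The trisomic mean of 3.83 was itself under the minimum of 4, which Bhmt reached through its euploid arrays (mean 7.30). The size of the fall may therefore depend on the floor here too. On the 6 pre-mid-pachytene arrays alone the adjusted p was 0.0882. In liver Bhmt was at 16.60, 16.49 and 16.61 in trisomic arrays and 16.65, 16.52 and 16.63 in euploid arrays, a difference of -0.031 (95% interval -1.33 to 1.27, limma adjusted p = 0.990). The interval uses a spread pooled over all cell types. The SD of Bhmt was 0.067 in trisomic and 0.071 in euploid liver, but 1.62 in trisomic spermatids. These liver levels lie close to the highest value of the whole table, 16.75, where the array has little room to show a rise. The genotype difference in pre-mid-pachytene spermatocytes was lower than that in liver by 3.43 (SE 0.87, limma adjusted p = 0.0258 for the difference of the differences, where 6.89% of all tested genes passed and 3.44% were lower), and this call ended without trisomic replicate 1 or 2 or euploid replicate 1 of the pre-mid-pachytene arrays (adjusted p 0.0601 to 0.0623).

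Levels of Cyp17a1, a steroid hydroxylase gene of Leydig cells, the androgen-making cells outside the tubules, varied between germ cell arrays. They had the order of Bhmt in some groups and not in others. Pre-mid-pachytene spermatocytes had Cyp17a1 at 3.66, 2.70 and 2.69 in trisomic arrays and 6.97, 4.62 and 3.65 in euploid arrays. The 3 euploid arrays had the same order for Bhmt. No order is read from the 3 trisomic arrays (Bhmt 3.69, 3.76 and 4.05), since Cyp17a1 was in the background range on replicates 2 and 3. Cyp17a1 is no marker of Leydig cells in liver, where it averaged 10.49 in trisomic and 8.13 in euploid arrays. Mid-late-pachytene spermatocytes had 3.02 and 2.32 in trisomic arrays and 2.01 and 4.86 in euploid arrays, and spermatids 1.80, 1.33 and 3.99 in trisomic arrays and 7.98, 1.32 and 5.93 in euploid arrays. The order in mid-late-pachytene spermatocytes was that of Bhmt in euploid arrays. In trisomic arrays Bhmt was in the background range, so no order is read there. In spermatids the trisomic array with the highest Bhmt, replicate 3, also had the highest Cyp17a1, as well as Hsd3b1, a Leydig cell steroid dehydrogenase gene, at 5.05, while the euploid array with the lowest Bhmt, replicate 2, had the lowest Cyp17a1. Euploid mid-late-pachytene replicate 1 had Bhmt at 6.55 with Cyp17a1 in the background range. Of the 7 Leydig cell markers listed 4 were on the array, and Cyp11a1 and Star stayed between 2.34 and 3.46 on every array. Array medians of the 4 ran from 2.36 to 3.39 in trisomic and from 2.25 to 3.17 in euploid germ cells. Cyp17a1 did not pass between genotypes in pre-mid-pachytene spermatocytes, and the part of Leydig cell RNA in the Bhmt result was not tested. Albumin, a hepatocyte gene, averaged 2.72 in trisomic and 2.36 in euploid pre-mid-pachytene spermatocytes, 3.19 and 3.50 in mid-late-pachytene cells and 2.86 and 2.996 in spermatids (trisomic, then euploid means), and its part in the Bhmt result was not tested either.

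The upstream sequence of Bhmt, which differed in germ cells but not detectably in liver, is chr13:93637759-93638008 of GRCm38.p6 on the minus strand, with CG dinucleotides in capitals.
Bhmt: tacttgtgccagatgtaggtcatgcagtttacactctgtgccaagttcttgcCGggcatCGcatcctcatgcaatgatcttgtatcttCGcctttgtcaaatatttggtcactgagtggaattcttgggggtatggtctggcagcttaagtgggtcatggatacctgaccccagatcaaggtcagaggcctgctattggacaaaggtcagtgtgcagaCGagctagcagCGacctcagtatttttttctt
It holds 5 CG, close to the median of 6, and a CCAAT box, which 33.8% of promoters hold. Its neighbour Bhmt2 encodes a related methyltransferase that uses S-methylmethionine. Bhmt2 had 5.20, 6.22 and 5.92 in trisomic and 5.62, 6.31 and 6.42 in euploid spermatids, which overlapped (difference -0.34, SE 0.24). In mid-late-pachytene spermatocytes it had 6.10 and 5.80 in trisomic arrays and 6.06 and 6.22 in euploid arrays, and in liver it was at 14.36 to 14.66 in trisomic and 14.57 to 14.82 in euploid arrays. In pre-mid-pachytene spermatocytes Bhmt2 stood at 4.01, 3.57 and 3.49 in trisomic arrays and 3.24, 3.02 and 3.37 in euploid arrays, the opposite side from Bhmt, but under the minimum mean for a test. Bhmt2 passed in none of the 3 cell types where it was tested, although no test of Bhmt against Bhmt2 was made.

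**Figure D2:**
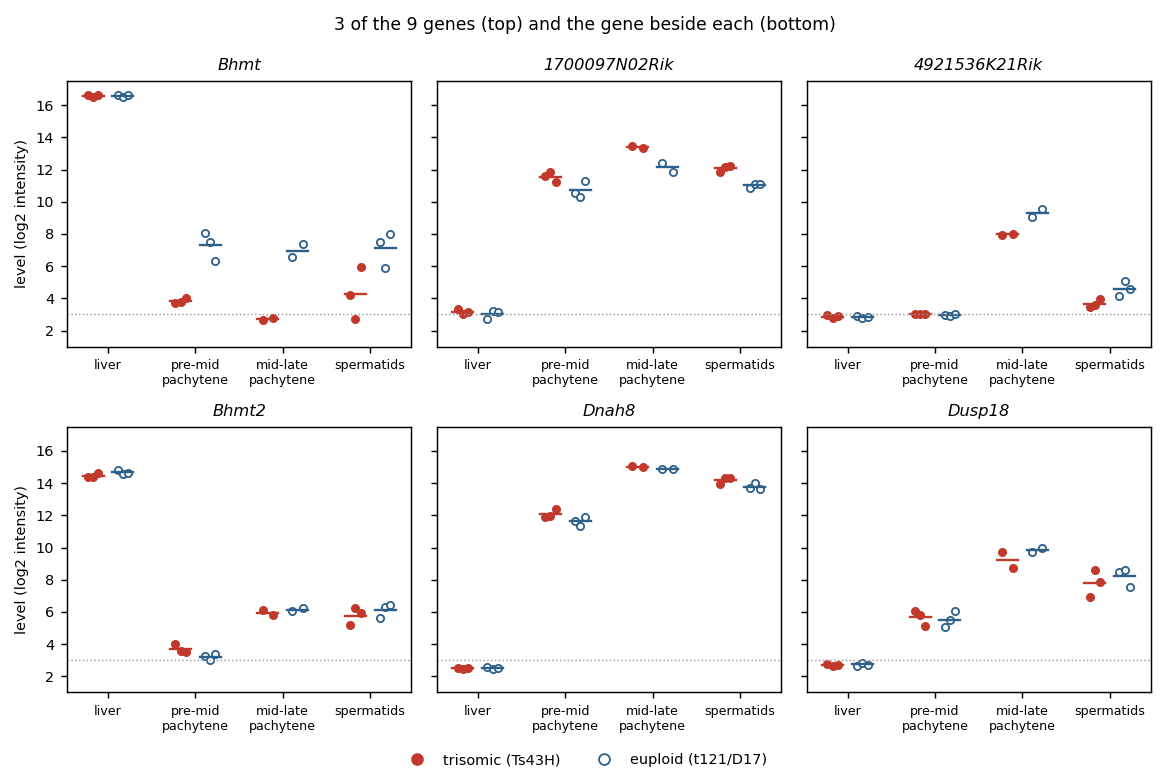
Level (log2 intensity, y axis) on every array of Bhmt, 1700097N02Rik and 4921536K21Rik (top) and of the gene beside each, Bhmt2, Dnah8 and Dusp18 (bottom), with trisomic arrays as filled red and euploid arrays as open blue circles, group means as bars and background range under the dotted line at 3. The late germ cell differences of the top row chose those genes, so the contrast with the bottom row is not a result. In late cells the genotypes part in the top row, except for Bhmt in spermatids, where trisomic replicate 3 lies just above euploid replicate 2. The bottom row shows overlapping arrays there, except for Dnah8 in mid-late-pachytene spermatocytes, where trisomic arrays (15.06 and 15.01) lie above euploid arrays (14.87 and 14.86).

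Bcr on chromosome 10 encodes a signalling protein and is the fusion partner of ABL1 in human chronic myeloid leukaemia. Mid-late-pachytene spermatocytes had 6.61 and 6.46 in trisomic arrays and 7.60 and 7.73 in euploid arrays. Spermatids had 6.96, 7.43 and 7.11 in trisomic arrays and 8.19, 7.98 and 8.22 in euploid arrays. The genotypes were separate in both, with differences of -1.13 (SE 0.19) and -0.96 (SE 0.16). In pre-mid-pachytene spermatocytes trisomic arrays had 3.20, 2.93 and 3.23 and euploid arrays 3.70, 3.54 and 3.44, again separate. The mean was under the minimum for a test, and the interval of -0.72 to -0.16 comes from the fit with no filter on the mean. Liver had 8.68, 8.48 and 8.30 in trisomic arrays and 8.76, 8.57 and 8.88 in euploid arrays, and the difference of -0.25 (SE 0.15, limma adjusted p = 0.355) did not pass. Its upstream sequence is shown as the most CG-rich of the 7 members with a promoter in the table (chr10:75060646-75060895, GRCm38.p6, plus strand, CG in capitals).
Bcr: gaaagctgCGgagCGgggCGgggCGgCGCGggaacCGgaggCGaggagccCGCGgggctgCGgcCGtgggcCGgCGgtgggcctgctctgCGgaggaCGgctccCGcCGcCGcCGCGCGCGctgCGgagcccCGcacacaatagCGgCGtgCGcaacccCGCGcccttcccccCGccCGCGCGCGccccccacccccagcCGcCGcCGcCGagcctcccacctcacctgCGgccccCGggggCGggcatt
It holds 42 CG, against 7 and 5 for Ttc22 and Bhmt, a number at the percentile 99.3 of all promoters.

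Pard6g on chromosome 18 is a PAR6 protein, which joins PAR3 and atypical protein kinase C in the complex that sets cell polarity. Its level in mid-late-pachytene spermatocytes was 5.72 and 4.81 in trisomic arrays and 7.004 and 6.52 in euploid arrays, and in spermatids 3.53, 4.25 and 4.59 in trisomic arrays and 5.79, 6.48 and 5.29 in euploid arrays. The genotypes did not overlap, with differences of -1.50 (SE 0.35) and -1.73 (SE 0.29). In pre-mid-pachytene spermatocytes they did, at 3.21 to 3.42 in trisomic and 3.21 to 3.42 in euploid arrays (difference -0.052, 95% interval -0.67 to 0.57). Pard6g was at 3.16 to 3.17 in trisomic and 2.91 to 3.18 in euploid liver.

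Ramp3 on chromosome 11 encodes a receptor activity modifying protein, which turns the calcitonin receptor-like receptor into a receptor for adrenomedullin. Mid-late-pachytene spermatocytes had 5.33 and 4.90 in trisomic arrays and 6.59 and 7.06 in euploid arrays, and spermatids 5.12, 4.88 and 4.87 in trisomic arrays and 5.56, 5.79 and 6.17 in euploid arrays. The arrays were separate in both, with differences of -1.71 (SE 0.21) and -0.89 (SE 0.17). They were separate in pre-mid-pachytene spermatocytes as well, at 1.64 to 1.74 in trisomic and 1.99 to 2.01 in euploid arrays, but these values lie in the background range. Calcrl, the receptor gene that Ramp3 pairs with, was in the background range in late germ cells of both genotypes (2.74 in trisomic and 2.79 in euploid mid-late-pachytene spermatocytes, group means).

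4921536K21Rik, also on chromosome 11, was high only at 1 stage. Mid-late-pachytene spermatocytes had 7.966 and 8.004 in trisomic arrays and 9.08 and 9.53 in euploid arrays, and spermatids 3.47, 3.58 and 3.95 in trisomic arrays and 4.15, 5.11 and 4.57 in euploid arrays. The genotypes were separate in both, with differences of -1.32 (SE 0.24) and -0.94 (SE 0.19). Liver and pre-mid-pachytene arrays all lay between 2.76 and 3.05. The gene's annotated span overlaps that of Dusp18, a dual-specificity phosphatase gene on the other strand, and the starts are 114 bases apart. Its upstream sequence is shown for that shared start (chr11:3895127-3895376, GRCm38.p6, minus strand), with matches of the RFX half-site GTTGCC on either strand in capitals (GGCAAC on the other strand).
4921536K21Rik: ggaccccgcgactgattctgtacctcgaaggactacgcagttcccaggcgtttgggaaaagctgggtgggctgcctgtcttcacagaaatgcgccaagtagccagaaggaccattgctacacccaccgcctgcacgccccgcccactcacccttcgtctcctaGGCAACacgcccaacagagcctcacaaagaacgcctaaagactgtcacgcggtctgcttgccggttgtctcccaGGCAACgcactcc
The half-site occurs 2 times, and 10.4% of promoters hold it at least once. Dusp18 had 9.74 and 8.75 in trisomic and 9.70 and 9.97 in euploid mid-late-pachytene spermatocytes, and 6.91, 8.59 and 7.85 in trisomic and 8.51, 8.60 and 7.58 in euploid spermatids. Its arrays overlapped in both, with differences of -0.59 (SE 0.46) and -0.45 (SE 0.38) that did not pass. These had the same sign as those of 4921536K21Rik, and no test of 1 gene against the other was made. Which transcript parts the probe sets of the 2 overlapping genes read could not be checked.

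**Figure D3:**
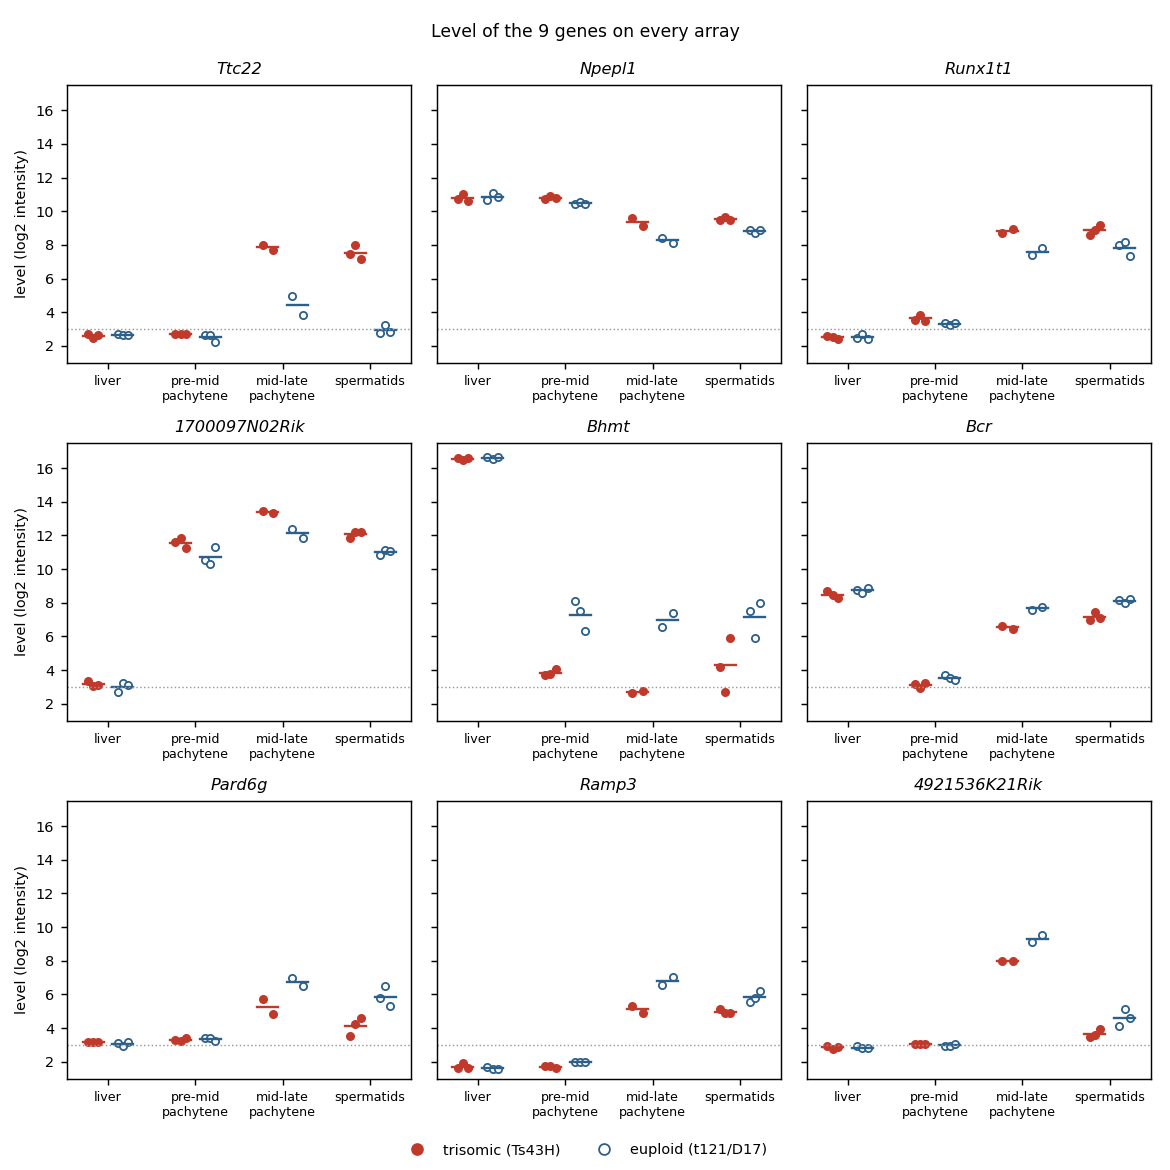
Level (log2 intensity, y axis) of each of the 9 genes on all 22 arrays by cell type, with trisomic arrays as filled red and euploid arrays as open blue circles and group means as bars; the dotted line at 3 is the upper end of the background range. Ttc22 leaves the background only in late germ cells, Npepl1 is high everywhere, and Bhmt is near 16.6 in liver and between 2.65 and 8.08 in germ cells.

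The margin by which genes entered the group was narrow for several. Pard6g and Npepl1 had the largest adjusted p of the 2 late-cell comparisons (0.0484 and 0.0481), and just outside lay Clasrp (0.0569) and Cep20 (0.0588). Across the 9 genes, trisomic and euploid arrays did not overlap for 9 in mid-late-pachytene cells and for 8 in spermatids, where 33% and 13% of all tested genes did not overlap either, and where the test called 0.965% and 0.821% of genes. Nothing is read from these counts, since the same comparisons chose the genes.

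Outside the cells that chose them, the members were near background or did not pass in liver, while pre-mid-pachytene spermatocytes had 2 changes past the test. Only 3 of 9 members had a mean of at least 4 in liver (Npepl1, Bhmt and Bcr), and 0 of these passed limma or had an unadjusted p under 0.05, where 9.55% of all tested genes passed. The direction in liver was that of the late cells for 3 of 9, against 52% of the 4885 genes with 1 direction in both late cell types, and the arrays of all 9 overlapped, where 14.8% of all named genes did not. In pre-mid-pachytene spermatocytes 3 of 9 had a mean of at least 4 (Npepl1, 1700097N02Rik and Bhmt). Of these 1700097N02Rik rose and Bhmt fell, where 10.3% of all tested genes passed (5.88% higher and 4.46% lower), and 1 of them, Bhmt, alone still passed under quantile normalization. Without a filter, 8 of 9 members, all but 4921536K21Rik, had the direction of the late cells in pre-mid-pachytene spermatocytes, against 58.5% of those 4885 genes. The arrays of 6 of 9 (Ttc22, Npepl1, Runx1t1, Bhmt, Bcr and Ramp3) did not overlap there, all in the late-cell direction. The share was 21.1% for those genes and 18.5% for all named genes in either direction. However, Ttc22 and Ramp3 were in the background range, and Runx1t1 and Bcr were also under the mean of 4. Of the 6, only Npepl1 and Bhmt were therefore tested. The fit that chose the members pooled the spread over all cell types, these arrays included, which favours genes with little spread. The compared genes were not chosen by that test, so nothing is read from the 6 of 9 against these shares. The counts in pre-mid-pachytene spermatocytes sit beside the fall of round spermatid markers in the same trisomic arrays, whose part in them was not tested.

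**Figure D4:**
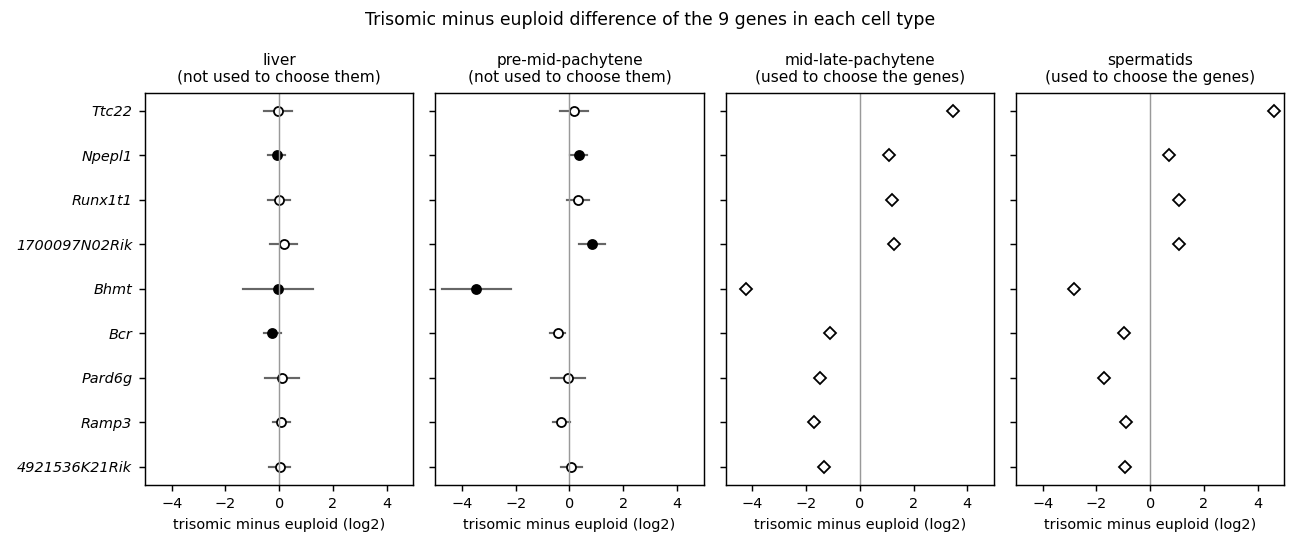
Trisomic minus euploid difference (log2, x axis) of the 9 genes in each cell type; in liver and pre-mid-pachytene spermatocytes filled circles are genes tested and open circles genes under the minimum mean, with 95% intervals, and open diamonds in the late germ cells are the values that chose the genes, with no interval. Bhmt at -3.46 and 1700097N02Rik at 0.84 lie farthest from 0 in pre-mid-pachytene spermatocytes, and every interval in liver includes 0.

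Between cell types, averaged over genotypes, 6 of the 9 genes were near background in pre-mid-pachytene spermatocytes and entered the comparison with mid-late-pachytene spermatocytes through the later cells alone, where the choice of the members required a level above the minimum. Their direction was therefore fixed, and the size of each difference depends on the floor of the array. As a description, mid-late-pachytene cells were above pre-mid-pachytene cells by 5.64 for 4921536K21Rik, 4.72 for Runx1t1, 4.12 for Ramp3, 3.76 for Bcr, 3.53 for Ttc22 and 2.69 for Pard6g on the log2 scale. The other 3 genes were measured on both sides, in a comparison where 85.1% of all tested genes passed (45.3% higher and 39.8% lower). Of these, 1700097N02Rik rose by 1.63 (SE 0.19, limma adjusted p = 1.56e-07), Npepl1 fell by 1.82 (SE 0.12), and Bhmt, at -0.73 (SE 0.48, adjusted p = 0.165), did not pass. The spread behind these tests is shared with the arrays that chose the members. For Ttc22 the mean of genotypes covers an unequal pair, since the trisomic level was 7.86 ± 0.23 and the euploid level 4.41 ± 0.78 in mid-late-pachytene cells (SD, n = 2 each).

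From mid-late-pachytene spermatocytes to spermatids the members parted. Of the 9, 5 fell and 2 rose, where 73.7% of all tested genes passed (32.9% higher and 40.8% lower). 4921536K21Rik fell by 4.51 (SE 0.15, limma adjusted p = 3.33e-14), 1700097N02Rik by 1.21, Pard6g by 1.03, Ttc22 by 0.89 and Ramp3 by 0.57, while Bcr rose by 0.55 and Npepl1 by 0.36. With each array centred on its median, the rises of Bcr (0.27, adjusted p = 0.0584) and Npepl1 (0.084, adjusted p = 0.548) did not pass, and Npepl1 did not pass either without mid-late-pachytene trisomic replicate 2 (0.24) or euploid replicate 2 (0.29). Runx1t1 (0.16, 95% interval -0.18 to 0.49) and Bhmt (0.87, -0.15 to 1.88) did not pass. Bhmt passed without spermatid replicate 2 of either genotype (1.26 without the trisomic array, adjusted p = 0.0105, and 1.17 without the euploid one, adjusted p = 0.0291).

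Set against the pre-mid-pachytene stage, the same 6 genes were again near background on the earlier side, with spermatids above by 4.88 for Runx1t1, 4.31 for Bcr, 3.55 for Ramp3, 2.64 for Ttc22, 1.66 for Pard6g and 1.13 for 4921536K21Rik, as a description. Among the 3 genes measured on both sides, Npepl1 was lower in spermatids (-1.46) and 1700097N02Rik higher by 0.42 (adjusted p = 0.0263), where 89.7% of all tested genes passed (49.6% higher and 40.1% lower), and Bhmt (0.14, 95% interval -0.76 to 1.04) did not pass. The rise of 1700097N02Rik was -0.25 under quantile normalization (adjusted p = 0.225) and did not pass in 7 of the fits that left out 1 array. Against liver, Npepl1, Bhmt and Bcr were measured on both sides and were lower in spermatids (-1.64, -10.88 and -0.96 in this order, log2), where 93.8% of all tested genes passed (48.6% higher and 45.3% lower), Bhmt from a liver level close to the top of the array. The other 6 genes were near background in liver, so that their direction was fixed in the same way and the sizes depend on the floor. Spermatids were above liver by 8.46 for 1700097N02Rik, 5.84 for Runx1t1, 3.73 for Ramp3, 2.61 for Ttc22, 1.88 for Pard6g and 1.28 for 4921536K21Rik.

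Of the members, 6 were set in their pathway or family through the other genes of a list, and in late germ cells 0 of 75 and 0 of 72 tested genes of these 6 lists passed limma. With 0.965% and 0.821% of all tested genes passing there, a count of 0 says nothing particular to the lists. The methionine and one-carbon list of Bhmt had 10 tested genes of 22 on the array in each late cell type, with a median difference of -0.14 for mid-late-pachytene cells and -0.094 for spermatids, beside 0.0034 and 0.013 over all genes. Mtr, the cobalamin-dependent methionine synthase that remethylates homocysteine by the other route, was at 7.92 in trisomic and 7.77 in euploid mid-late-pachytene spermatocytes (group means). Of the polarity list of Pard6g 12 of 19 were tested in each, with medians of -0.069 and 0.022. Its paralogue Pard6a was at 11.74 in trisomic and 11.89 in euploid spermatids (group means), and Pard3 was in the background range in both late cell types. The corepressor list of Runx1t1 had 8 tested of 15 and medians of 0.057 and -0.18. Its family member Cbfa2t2 was at 5.32 in trisomic and 5.51 in euploid spermatids, and Runx1, the leukaemia fusion partner, in the background range.

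Aminopeptidases, the list of Npepl1, had 15 of 18 tested in each and medians of 0.040 and -0.0014. The tetratricopeptide repeat genes named Ttc had 29 and 26 of 34 tested, with medians of -0.054 and 0.0035. Of the receptor list of Ramp3 only Crcp was tested in germ cells, at 12.79 in trisomic and 12.76 in euploid mid-late-pachytene spermatocytes (group means).

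In liver 9 of 90 tested list genes passed, or 10%, beside 9.55% of all tested genes, so the share is near the background: Ramp1, a sister gene of Ramp3, rose by 1.16 (SE 0.27, limma adjusted p = 0.0101), Cndp2 rose by 0.40, and Ahcyl2, Pard3, Mpp5, Lin7a, Metap1, Ttc7b and Ttc39c fell. Among these Pard3 fell by 0.78 and Ahcyl2, related to the hydrolase of S-adenosylhomocysteine, by 1.04, although their trisomic and euploid arrays overlapped. Pre-mid-pachytene spermatocytes had 5 of 77, or 6.49%, beside 10.3% of all tested genes: the deacetylase gene Hdac3 rose by 0.65 (SE 0.16, limma adjusted p = 0.0181), Ttc5 by 0.75, Ttc4 by 0.64 and Ttc30b by 0.61, and Ttc13 fell by 0.67. Of the 18 genes next to the members on either side, Adnp2 beside Pard6g fell by 0.83 in liver (limma adjusted p = 0.0126) and Triqk beside Runx1t1 rose by 0.83 in pre-mid-pachytene spermatocytes (limma adjusted p = 0.00398). In late germ cells none of those tested passed, 10 in mid-late-pachytene cells and 9 in spermatids.

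Genes with the most similar pattern were ranked by Pearson's r of the levels over the 22 arrays, which is a description that mostly reflects the 4 cell types the arrays share. For Ttc22 these were Rab11fip3 (r = 0.87) and Nid2 (0.83), lower than for any other member. Bhmt was closest to Ephx1 (0.97) and Arpc1b (0.97), Runx1t1 to Skap1 and Zfp94 (0.99 each), and 1700097N02Rik to Cox7b2 and Ptpn20 (0.99 each). Npepl1 was closest to Ctnna1 (0.96) and Cdk2ap2 (0.95), and Bcr to Slc1a2 (0.98) and Slc22a18 (0.97). Pard6g was closest to Pgf (0.95) and 1700054K19Rik (0.94), Ramp3 to Svop (0.99) and Emid1 (0.98), and 4921536K21Rik to Ttc39b and Wdr7 (0.97 each). With Spearman's rank correlation only 2 of these 18 nearest genes, Cdk2ap2 for Npepl1 and Ephx1 for Bhmt, were named again.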

How the data were processed

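The authors deposited 1 log2 intensity for each probe set and array, made with GCRMA, per the submitters' processing notes. The version and the set of arrays normalized together are not given in the sources used here. The table held 16539 probe sets, of which 15780 carried 1 gene symbol and were analysed, and 759 did not. Names, chromosomes and gene order came from RefSeq (GRCm38.p6), which placed 15752 genes, and promoter sequences from the same build, which had entries for 7 of the 9 genes.

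All 22 arrays entered 1 limma fit of 8 group means, with limma 3.58.1 in R 4.3.3, and contrasts were tested two-sided with Benjamini-Hochberg adjustment at 0.05 over every gene whose mean level reached 4 in a compared cell type. Each gene thus had 1 spread pooled over all cell types, also where its arrays spread more in some cell types than in others. The fit was tested on simulated data for the liver comparison only, with 1 spread per gene over all cell types. That simulation did not cover the other comparisons, or changes in genes near the floor. Intervals are at 95%. For genes under the minimum mean, the SE and interval came from the same fit with no filter on the mean. Array number, not counts, limits precision.

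The members, lists and tests were chosen with earlier results of these data known. Named are every member, its 2 nearest genes by pattern, family members, neighbours on the chromosome and up to 3 list genes past the threshold per list and cell type. Genes of the Leydig and hepatocyte lists, Umodl1, Zfand3, Rnf8, Ttc30b, Runx1 and the pathway genes Mtr, Crcp and Calcrl were named after their values were seen. Alternatives changed the filter, normalization, spread model and arrays used. One further gene list is not reported here.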

Additional observations from a re-analysis of the deposited data

Results flagged for a closer look

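The effect of trisomy on Bhmt was not the same in pre-mid-pachytene spermatocytes and in liver when their difference was tested, at -3.43 (SE 0.87, limma adjusted p = 0.0258), where 6.89% of 10054 tested genes passed. In pre-mid-pachytene spermatocytes all 3 trisomic arrays lay below all 3 euploid arrays, and in liver the arrays overlapped. Liver levels of 16.49 to 16.65 lie close to the highest value of the table, 16.75, where the array has little room to show a difference, which limits the liver side of this value. Among the pre-mid-pachytene arrays, the value was -3.04 when euploid replicate 1 was left out (adjusted p = 0.0601), -3.36 without trisomic replicate 1 (0.0623) and -3.40 without trisomic replicate 2 (0.0603). The other alternatives kept it past the threshold, with adjusted p from 0.00741 to 0.0493. Other members tested in the same way, Npepl1 (0.43), 1700097N02Rik (0.67) and Bcr (-0.19), did not pass. Among them only Npepl1 was above the minimum mean on both sides. 1700097N02Rik was near background in liver and Bcr in pre-mid-pachytene spermatocytes, so a genotype difference could hardly show there.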

How the results depend on the processing

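The choice of the 9 genes depended on the processing. Over 18 settings, the standard one included, Ttc22 and Bcr met it in 16, Ramp3 in 13, Runx1t1, Bhmt and Pard6g in 10, 4921536K21Rik in 9, Npepl1 in 8 and 1700097N02Rik in 4. A minimum mean of 6 left 1 member, the replicate block 5, and leaving out 1 array 3 to 7. Fitted on the arrays of each cell type alone limma called 0 members in both, with all 9 at an unadjusted p under 0.05 in each. In mid-late-pachytene spermatocytes a minimum mean of 6 left 4 of the 9 called, that cell type's arrays alone 0, and leaving out 1 array 4 to 7. In spermatids the counts were 2, 1 and 3 to 6. In pre-mid-pachytene spermatocytes 1 in place of 2 members passed without a filter, with a minimum mean of 6, with quantile normalization or with the replicate block, 1 to 2 without 1 array, and 0 on the arrays of that cell type alone (3 at an unadjusted p under 0.05). The difference between pre-mid-pachytene spermatocytes and liver kept 0 to 1 members without 1 array. With a minimum mean of 6 all tested members, 4 and 5, passed between spermatids and pre-mid-pachytene spermatocytes and between spermatids and liver, against 8 and 9, counts that include the 6 genes whose direction was fixed by the minimum mean.

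Values that changed sign were small. In liver, Npepl1 ran from -0.21 to 0.013 without 1 array (0.013 without euploid replicate 2) and Bhmt from -0.072 to 0.0073 (0.0073 without trisomic replicate 2). With arrays centred on the median, Runx1t1 was -0.12 between spermatids and mid-late-pachytene spermatocytes and Bcr 0.019 between pre-mid-pachytene spermatocytes and liver. Between spermatids and pre-mid-pachytene spermatocytes 1700097N02Rik was -0.25 with quantile normalization, and Bhmt, at 0.14 with all arrays, ran from -0.27 to 0.54, with -0.27 and -0.071 without spermatid replicate 3 of trisomic or euploid males and -0.10 without euploid pre-mid-pachytene replicate 3. The cause of these changes was not tested.

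Counts over all genes moved as well. Fitted on the arrays of a cell type alone, limma called 19 genes in liver against 781, 4 in pre-mid-pachytene spermatocytes against 867, 0 in mid-late-pachytene spermatocytes against 78 and 1 in spermatids against 68. A minimum mean of 6 gave 9 and 22 in the late cells, and no filter 110 in spermatids. Without 1 array the counts ran from 247 to 1089 in pre-mid-pachytene and from 46 to 207 in mid-late-pachytene spermatocytes. The test between pre-mid-pachytene spermatocytes and liver called 1184 genes with centring, 248 on those arrays alone and 319 to 868 without 1 array, against 693.

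Same-numbered arrays of the genotypes did not deviate together throughout (r of 0.074, 0.24 and 0.11 in liver, -0.0036, 0.36 and -0.091 in spermatids, -0.026 in mid-late-pachytene and 0.19, -0.13 and 0.013 in pre-mid-pachytene spermatocytes), so the numbers were not taken as pairs. With the replicate block the rise of 1700097N02Rik in pre-mid-pachytene spermatocytes had an adjusted p of 0.0718, and without a filter 0.0524.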
